A study of Mus musculus with 6 samples.

Results

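Genes that make, sense, take up and move cholesterol were followed in the colon and liver of mice with chemically induced colitis, with and without parsley in the diet. The group was defined as a list of 31 gene symbols, and every probe set of the deposited table that the array annotation gives to one of these symbols alone was taken. This gave 63 of 45101 probe sets for 28 genes, of 18194 genes read through a single symbol. No such probe set was found for Acat2, Soat1 and Soat2, so the thiolase that starts the pathway (Acat2) and the acyltransferases that esterify cholesterol (Soat1 and Soat2) were not analysed here. Of the 28 genes, 18 had several probe sets and 10 had 1.

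Cells build cholesterol from acetyl-CoA. Condensing enzymes and kinases of the mevalonate arm make the isoprenoid farnesyl diphosphate, squalene synthase joins its molecules, and a series of oxidations and reductions turns squalene into lanosterol and then cholesterol. Transcription of nearly all these enzymes is driven by the protein made from Srebf2, a membrane-bound factor that the escort protein Scap carries to the Golgi when sterols are scarce and that the Insig proteins hold back in the endoplasmic reticulum when sterols are plentiful. The liver is the main site of regulated synthesis and of disposal as bile acids. The intestinal epithelium both absorbs and makes cholesterol.

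Male C57BL6/J mice, 7 weeks old, formed 3 groups of 7. Control mice (CON) ate a basal diet and drank plain water. Colitis mice (DSS) ate the same diet and, after 7 days of plain water, received dextran sodium sulphate, a sulphated sugar polymer toxic to the gut lining, at 1.5% (w/v) in the water for 10 days. Parsley mice (DSSPAR) ate a basal diet with 2% parsley throughout and drank 1.5% of the polymer for 9 days after the same 7 days of water, so the diet and the days of exposure differ together between DSSPAR and DSS. For each tissue and group, RNA from all 7 mice was combined and hybridised to 1 Affymetrix Mouse Genome 430 2.0 array, 6 arrays in all. All differences therefore compare 1 pool with 1 pool, no test is possible and no p-value is given, and the number of arrays limits the precision.

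Values are MAS5 intensities on a linear scale. The 2% trimmed means computed from them were 106.2 to 111.0 on the colon arrays, which differed among themselves, and 500.0 on each liver array. Colon and liver thus stood on different scales, so each tissue was read alone. Intensities below the median over the 3 arrays of a tissue, 25.1 in colon and 96.6 in liver, were raised to that floor before a ratio was taken, so a fold against such a value is a lower bound. The log2 medians of 2 arrays compared differed by -0.084 to -0.28 in colon and -0.15 to -0.31 in liver. Centring each array on its own median takes these away and so raises every log2 ratio, and a ratio below 0 by less than that amount changes sign. All 12 colon epithelial markers lay above the floor in at least 1 colon array, and of 10 hepatocyte markers on the array the albumin gene Alb and 4 others stayed under it in colon while none did in liver. Of the 28 cholesterol genes, 27 lay above the floor on all 3 arrays of colon and 27 on all 3 of liver. The exception was Npc1l1, the sterol importer of the apical membrane, under the floor in every colon array (17.2 in CON, 7.30 in DSS and 5.66 in DSSPAR) and in 1 liver array. As a yardstick for noise, the log2 ratios of the 2 brightest probe sets of a gene differed with a robust SD of 0.36 to 0.42 in colon and 0.48 to 0.57 in liver, depending on the comparison. It holds no spread between mice, pools or arrays.

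Promoter sequences from RefSeq (GRCm38.p6), running from 250 bases before to 50 bases after a gene's start, were in the table used here for 24 of the 31 genes. Sterol response elements were searched as TCACNCCAC and in 2 shorter forms, TCACNCCA and CACNCCAC, which both lie inside the longer one, on both strands. The longer form occurred in 1 of the 24 genes (Hmgcs1). It occurred in 1.24% of all 32851 promoters of the same length and in 1.42% of genes above the floor in either tissue. TCACNCCA occurred in 3 (Hmgcs1, Msmo1 and Srebf2), against 4.36% of all promoters and 4.62% of genes above the floor. CACNCCAC occurred in 3 (Acat2, Hmgcs1 and Insig1), against 6.24% and 7.81%. The CCAAT box, which binds the factor NF-Y, a common partner of sterol-regulated transcription, occurred in 22 of 24 genes on either strand, against 37.4% of all promoters and 42.2% of genes above the floor in either tissue. Acat2 and Scap had none in this window. GGGCGG, the GC box, occurred in 21 of 24, against 35.7% of all promoters and 63% of genes above the floor. These are matches of letters, not measured binding. The 4 promoters below are shown because Hmgcs1, Msmo1 and Srebf2 hold TCACNCCA and were past 2-fold in liver, and Scap, also past 2-fold there, holds neither motif. Capitals mark TCACNCCA and CCAAT in either orientation, and Scap is shown at the most upstream of its 2 starts in the table.
Hmgcs1 (chr13:119690101-119690400, plus strand): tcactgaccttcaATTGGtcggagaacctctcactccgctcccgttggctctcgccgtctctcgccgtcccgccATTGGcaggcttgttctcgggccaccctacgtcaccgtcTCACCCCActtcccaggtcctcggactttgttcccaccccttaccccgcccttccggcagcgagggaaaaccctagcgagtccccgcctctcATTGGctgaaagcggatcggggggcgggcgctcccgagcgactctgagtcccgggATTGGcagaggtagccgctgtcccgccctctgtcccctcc
Msmo1 (chr8:64733529-64733828, minus strand): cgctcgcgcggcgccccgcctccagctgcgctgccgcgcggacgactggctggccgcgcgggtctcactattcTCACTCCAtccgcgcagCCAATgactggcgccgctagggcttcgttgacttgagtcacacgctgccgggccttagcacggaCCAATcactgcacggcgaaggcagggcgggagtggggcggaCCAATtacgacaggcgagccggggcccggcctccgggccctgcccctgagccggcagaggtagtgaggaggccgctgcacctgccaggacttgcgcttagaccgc
Srebf2 (chr15:82147019-82147318, plus strand): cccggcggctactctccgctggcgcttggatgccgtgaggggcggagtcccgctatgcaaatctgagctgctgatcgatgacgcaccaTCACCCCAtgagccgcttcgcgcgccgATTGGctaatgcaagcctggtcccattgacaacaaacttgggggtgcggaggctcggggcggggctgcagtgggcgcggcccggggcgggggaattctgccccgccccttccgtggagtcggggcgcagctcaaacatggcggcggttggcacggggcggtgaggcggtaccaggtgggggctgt
Scap (chr9:110333038-110333337, plus strand): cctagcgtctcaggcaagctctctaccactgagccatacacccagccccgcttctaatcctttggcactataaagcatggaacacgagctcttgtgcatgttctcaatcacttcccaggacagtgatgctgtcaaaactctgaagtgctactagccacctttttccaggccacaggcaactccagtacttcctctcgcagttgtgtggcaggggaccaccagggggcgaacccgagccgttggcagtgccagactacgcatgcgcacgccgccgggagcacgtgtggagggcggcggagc
In Hmgcs1 the sterol element match lay at bases -137 to -130 from the start and 4 CCAAT boxes in reverse orientation surrounded it, the nearest at -176 to -172. In Msmo1 the match lay at -177 to -170 with 3 CCAAT boxes downstream, and in Srebf2 at -162 to -155 with 1 CCAAT box downstream, at -135 to -131.

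The comparison of DSS with CON in liver addressed how the liver of mice with colitis differed from that of controls. Hmgcs1, Mvd, Idi1, Sqle and Lbr stood higher in DSS, the sterol enzymes Tm7sf2, Ebp and Sc5d stood lower, and of the regulators Srebf2 was higher and Scap lower. These are levels in whole tissue, in which fewer cells of a type and less RNA per cell cannot be told apart. Of 28 genes, 3 were at least 2-fold higher (Hmgcs1, Sqle and Srebf2), where 4.73% of 13034 genes measured were, and 1 was at least 2-fold lower (Scap), where 4.2% were. Either way this was 4 of 28, beside 8.93% of all genes. The median log2 ratio of the 28 genes was 0.015, against -0.018 over all genes, and 16 of 28 lay above 0, against 48.6% of all genes. Their median therefore lay near that of the array while single members lay past 2-fold on both sides.

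Within the mevalonate arm, Hmgcs1, the cytosolic synthase that condenses acetyl-CoA units into HMG-CoA, read 14624 in CON, 38717 in DSS and 33232 in DSSPAR on the probe set of highest intensity. It was 2.65-fold higher in DSS and 2.27-fold higher in DSSPAR than in CON. All 5 probe sets of Hmgcs1 stood above CON in both groups, at log2 ratios of 0.35 to 1.40 for DSS and 0.44 to 1.56 for DSSPAR, the dimmest with CON under the floor. The brightest one therefore gave the largest of the 5 values for DSS. Idi1, the isomerase of isopentenyl diphosphate, read 11594, 18341 and 19819 in the same order of groups, and Mvd, which makes isopentenyl diphosphate, read 262.7, 441.3 and 418.9. Both were higher in DSS and in DSSPAR than in CON by 1.58-fold to 1.71-fold. The second probe set of Mvd gave a log2 ratio of 0.096 for DSS and 1.00 for DSSPAR against CON. Mvk, the mevalonate kinase, read 582.9, 721.7 and 774.4, short of 1.5-fold on its brightest probe set. The dimmer probe set of Mvk, with CON under the floor, gave log2 ratios of at least 0.66 for DSS and 1.05 for DSSPAR against CON. Pmvk, the next kinase, read 1648, 1410 and 2385, and Fdps, which makes farnesyl diphosphate, read 7278, 5471 and 12883. These 2 genes were lowest in DSS and highest in DSSPAR, with Fdps 2.35-fold higher in DSSPAR than in DSS. The second probe set of Fdps lay under the floor on all 3 liver arrays, so this value rests on 1 probe set. Ggps1, which leads farnesyl diphosphate away to geranylgeranyl diphosphate, read 282.2, 330.6 and 255.2, and its 4 probe sets lay on both sides of CON in DSS.

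The squalene and sterol steps split by group. Sqle, the squalene epoxidase and a main control point of the pathway, read 2041 in CON, 4646 in DSS and 5664 in DSSPAR, 2.28-fold and 2.78-fold above CON. Fdft1, the squalene synthase, read 7284, 10155 and 13565, and Msmo1, the methylsterol oxidase, 6404, 9063 and 15451. For these 3 genes CON was lowest and DSSPAR highest. Msmo1 was 2.41-fold higher in DSSPAR than in CON on its brightest probe set and by at least 0.61 on the log2 scale on its dimmer one, whose CON value lay under the floor. Lss, which closes lanosterol's rings, read 1202, 1208 and 2149, and Nsdhl, a dehydrogenase that helps remove methyl groups, 3434, 3414 and 6755. CON and DSS were alike for both on these probe sets, and DSSPAR was higher by 1.78-fold for Lss and 1.98-fold for Nsdhl against DSS. The 2 other probe sets of Lss stood above CON in DSS, at log2 ratios of 0.35 and, with CON under the floor, at least 1.24. Lbr, a sterol reductase that is also the receptor of lamin B in the nuclear envelope, read 1301, 2392 and 1927. Hsd17b7, the ketosteroid reductase of the pathway, read 2887, 5322 and 3613, with the highest value in DSS. Its probe sets disagreed in sign, with the dimmest, under the floor in DSS, at -0.21 or lower on the log2 scale and the others at 0.10 to 0.88.

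4 other enzymes of the sterol steps were lowest in the DSS liver. DSS was the lowest liver array for 10 of all 28 cholesterol genes (35.7%), near the 35.1% of 13315 genes above the floor. Tm7sf2, the second sterol reductase acting at the step of Lbr, read 8780 in CON, 5741 in DSS and 8101 in DSSPAR. Ebp, the sterol isomerase, read 12630, 8764 and 14720, and Sc5d, the desaturase that follows it, 17507, 11930 and 23003. Dhcr7, the reductase that can complete the pathway, read 2136, 1771 and 3894. In each of these 4 genes DSS was the lowest array, by 1.21-fold to 1.53-fold against CON. On the log2 scale these differences were 0.27 to 0.61 in size. The probe set spread of 0.56 describes the difference between the ratios of 2 probe sets over all genes, not the spread of 1 ratio. The median absolute difference was 0.12 over the 16 cholesterol genes with 2 such probe sets and 0.38 over all genes. Of the 4 genes here only Sc5d had several probe sets. Against DSS the DSSPAR array was higher by 1.41-fold for Tm7sf2, 1.68-fold for Ebp, 1.93-fold for Sc5d and 2.20-fold for Dhcr7. One dim probe set of Sc5d went the other way, at a log2 ratio of 0.71 for DSS against CON and -0.99 for DSSPAR against DSS.

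**Figure D1:**
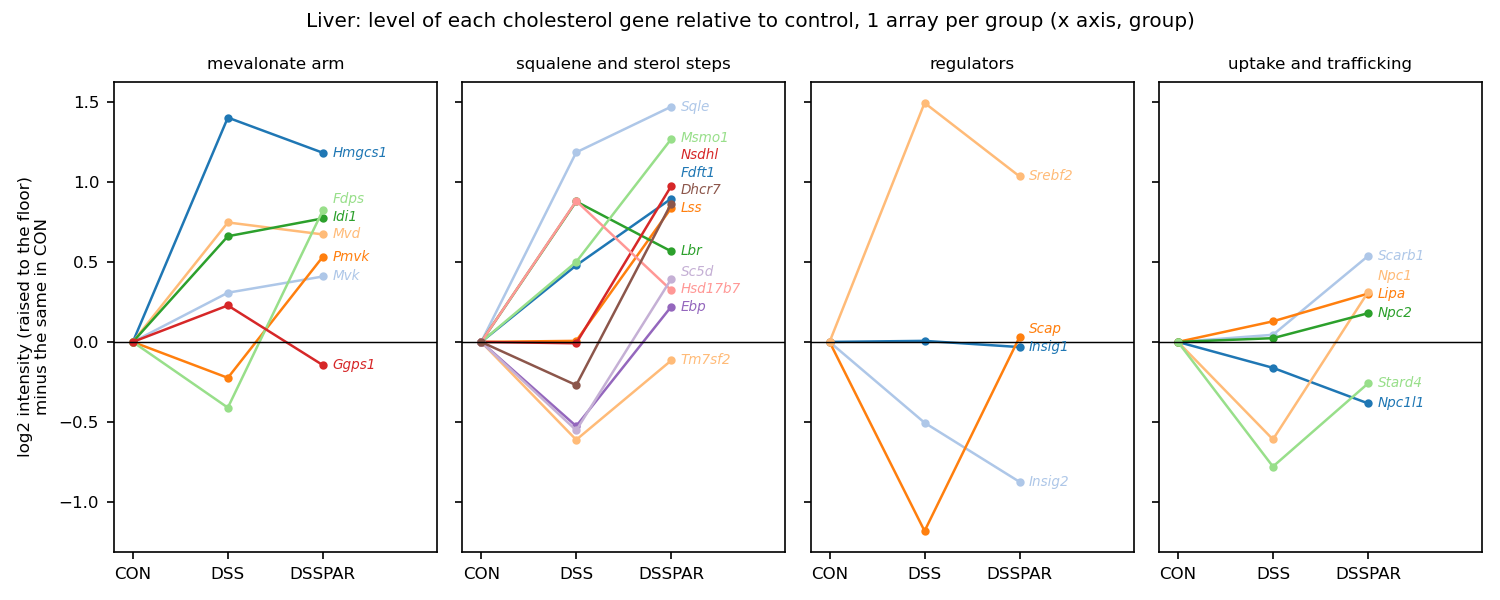
Liver intensity of each cholesterol gene on the log2 scale (raised to the floor) relative to CON, in CON, DSS and DSSPAR, 1 line per gene and 1 array per group, in panels by role. In DSS, Hmgcs1, Sqle and Srebf2 lie furthest above CON, at log2 ratios of 1.40, 1.19 and 1.50, Scap lies lowest at -1.18, and Ebp, Sc5d, Dhcr7 and Tm7sf2 dip in DSS. The CON value of Srebf2 lies close to the floor.

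Among the regulators in liver, Srebf2 read 131.9 in CON, 372.3 in DSS and 270.6 in DSSPAR, 2.82-fold and 2.05-fold above CON. Its second probe set read 111.8, 303.4 and 260.9 in the same order. Both thus stood higher in DSS and DSSPAR, but their CON values lay close to the floor of 96.6, and with the floor raised to the 75th percentile the log2 ratio for DSS was 0.021. Scap read 2954, 1300 and 3019 on its bright probe set, 2.27-fold lower in DSS than in CON and 2.32-fold higher in DSSPAR than in DSS. DSS alone was low for Scap, and its other probe set lay under the floor on all 3 arrays. Insig2, the retention protein with a liver-specific transcript, read 5995, 4221 and 3266. All 3 of its probe sets were highest in CON and lowest in DSSPAR, with log2 ratios of -0.96 to -0.80 for DSSPAR against CON. Insig1, the retention protein whose gene is itself a target of the pathway's transcription factor, read 12774, 12833 and 12493 on its only probe set, a range of 1.03-fold over the 3 groups. Insig1 therefore differed far less between the groups than Hmgcs1 or Sqle did.

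Of the 6 genes of uptake and trafficking in liver, 3 lay above CON and 3 below it in DSS. Stard4, which transfers cholesterol between membranes, read 4581, 2667 and 3825, and all 3 of its probe sets were lower in DSS than in CON, at log2 ratios of -1.07 to -0.78. Npc1, the membrane protein that exports cholesterol from lysosomes, read 1620, 1061 and 2009, lowest in DSS and highest in DSSPAR. Its soluble partner Npc2 ranged by 1.13-fold over the 3 arrays on its brightest probe set, and the next brightest read 3776, 3615 and 4842. Lipa, the acid lipase that frees cholesterol from its esters in lysosomes, ranged by 1.23-fold on its brightest probe set. The other probe sets of Lipa gave log2 ratios of 0.80 and 0.085 for DSSPAR against CON. Scarb1, the receptor that takes up cholesterol from high density lipoprotein, read 2635, 2718 and 3825, with CON and DSS alike and DSSPAR 1.41-fold above DSS. Npc1l1 read 126.1, 112.7 and 58.8, the last under the floor, so DSSPAR was at least 1.31-fold lower than CON.

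The comparison of DSSPAR with DSS in liver addressed how the group fed parsley differed from the colitis group without it. Of the 11 squalene and sterol genes 9 lay above DSS in DSSPAR, with Hsd17b7 (-0.56) and Lbr (-0.31) below it. Of 28 genes 3 were at least 2-fold higher (Fdps, Scap and Dhcr7), where 2.8% of 12398 genes were, and none was at least 2-fold lower, where 4.23% were. Either way 7.03% of all genes were past 2-fold. The median was 0.35 on the log2 scale, against -0.019 over all genes, and 19 of 28 genes lay above 0, against 48.5% of all genes. By role, the median was 0.75 for the 11 squalene and sterol genes, 0.10 for the 7 measured mevalonate genes, 0.33 for the 6 uptake and trafficking genes and -0.20 for the 4 regulators. The Scap value rests on 1 probe set and was -0.057 with the mean over probe sets. Furthest below DSS lay Hsd17b7, then Srebf2 (-0.46), Ggps1 and Insig2 (both -0.37). Of these, Hsd17b7 had 2 other probe sets at 0.21 and 0.22, and Ggps1 had 1 at 0.28.

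Against CON, the DSSPAR liver had most genes of synthesis higher. Of 28 genes 4 were at least 2-fold higher (Hmgcs1, Sqle, Msmo1 and Srebf2), against 3.26% of 12721 genes, and none was at least 2-fold lower, against 3.45%, with 6.71% past 2-fold either way. The median log2 ratio was 0.47, against -0.040 over all genes, and 22 of 28 lay above 0, against 46.2% of all genes. Of the 11 squalene and sterol genes 10 lay above CON (median 0.84), and of the 7 mevalonate genes 6 did (median 0.67). The 2 exceptions were Tm7sf2 at -0.12 and Ggps1 at -0.15, both above CON once arrays are centred on their medians. The furthest below CON was Insig2, 1.84-fold lower. These comparisons share the CON and DSSPAR arrays with those above, so the values are set side by side only. With arrays centred on their own medians, 10 of 28 lay past 2-fold, each upward in DSSPAR, beside 9.42% of all genes either way, and the median was 0.78, against 0.25 over all genes.

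**Figure D2:**
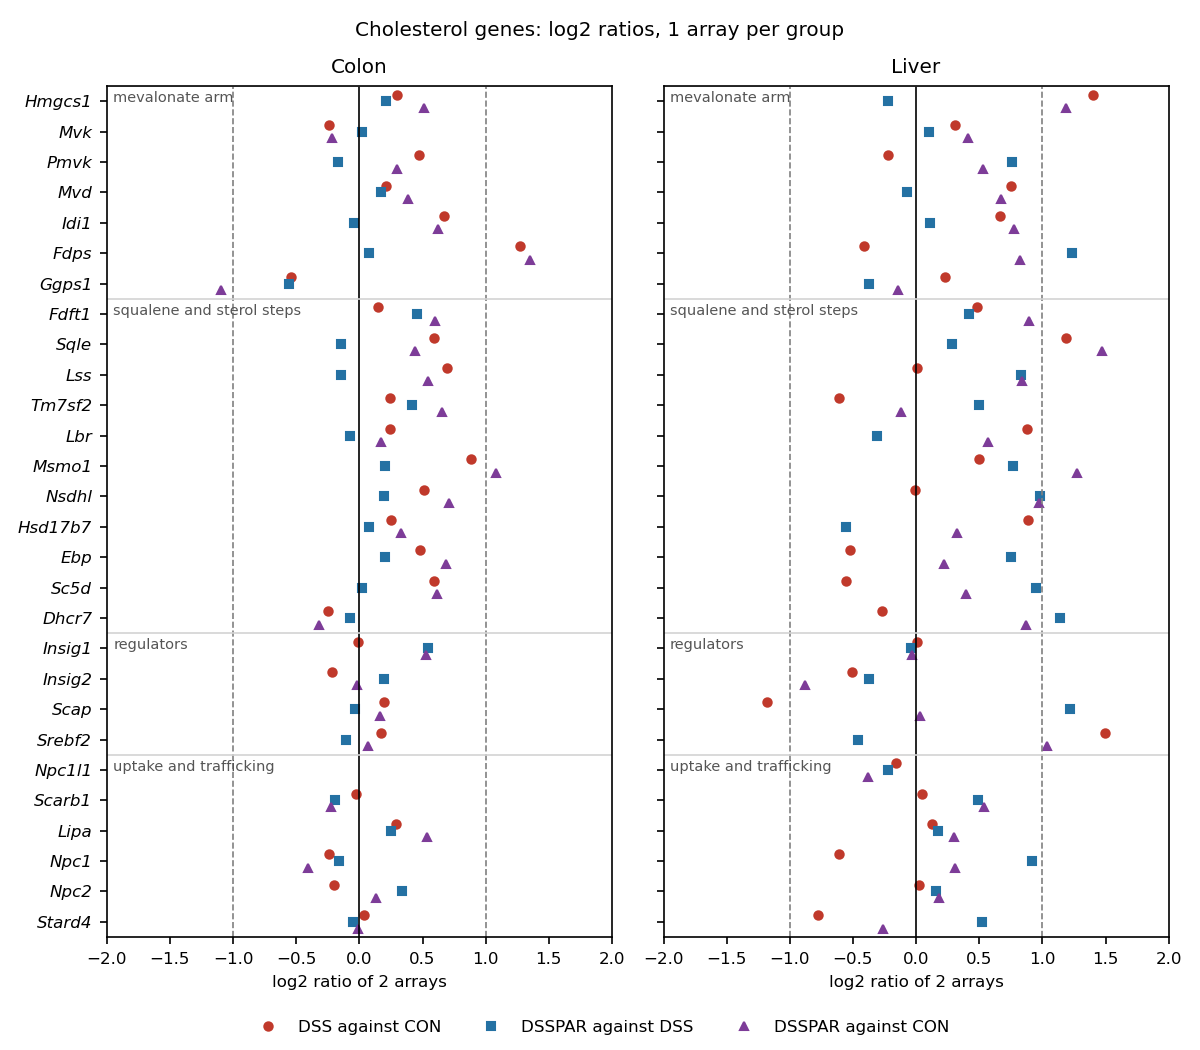
Log2 ratio (x axis) of each cholesterol gene (rows, by role) for DSS against CON (circles), DSSPAR against DSS (squares) and DSSPAR against CON (triangles) in colon and liver, from 1 array per group; dashed lines mark 2-fold. In colon 10 of 11 squalene and sterol genes lie above 0 for DSS against CON, and in liver 6 of 11 do.

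Probe sets of 1 gene give a check within the same arrays. In liver, 16 genes had several probe sets above the floor. In 14 of the 16 (87.5%) all of them lay on the same side of CON in DSSPAR, against 49.9% of all 5437 such genes, the exceptions being Hsd17b7 and Sc5d. For DSS against CON this held in 11 of 16 (68.8%), against 50.2% of 5604 genes, with Ggps1, Hsd17b7, Sc5d, Scarb1 and Npc2 split. For DSSPAR against DSS it held in 8 of 16, against 50.7%, and Hmgcs1 was among the split genes, its brightest probe set at -0.22 and the 3 next to it at 0.22 to 1.21. The direction of Hmgcs1 between the DSS and DSSPAR livers is therefore not settled by these arrays. In colon the members' probe sets lay on the same side no more often than those of all genes. This held in 9 of 16 members for DSS against CON (56.25%), against 57.1% of 5308 genes. For DSSPAR against DSS it was 8 of 16 (50%), against 51.9% of 5106. For DSSPAR against CON it was again 8 of 16, against 56.9% of 5195.

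**Figure D3:**
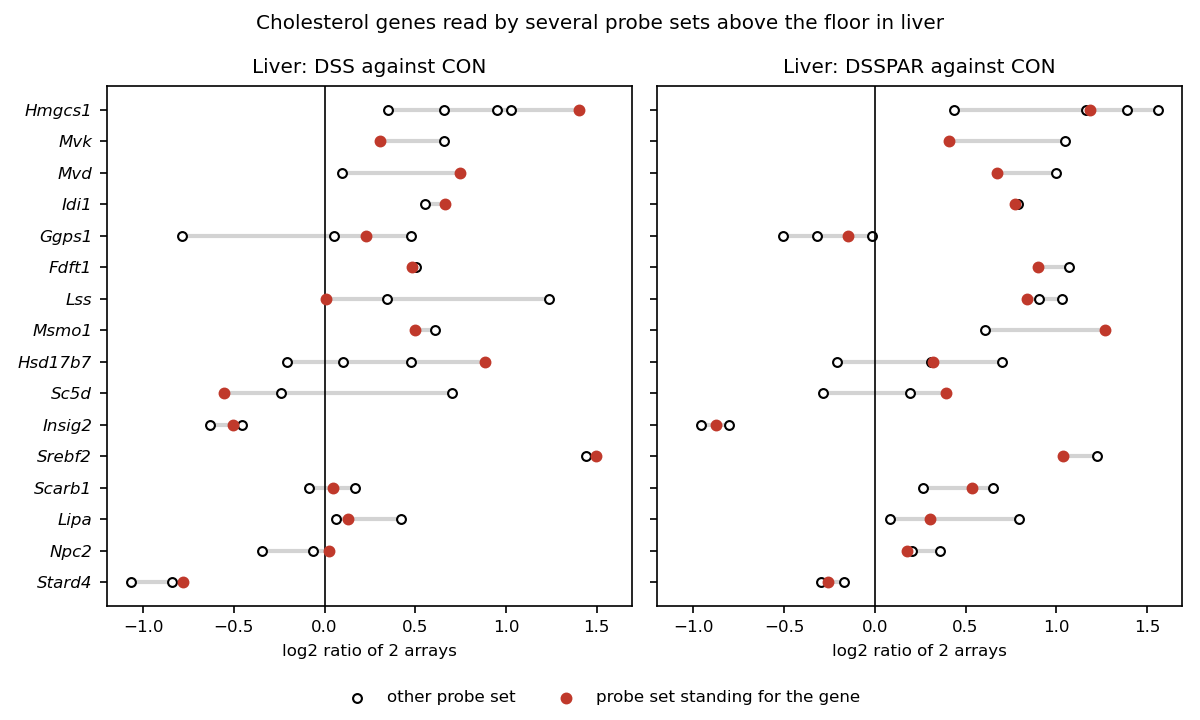
Log2 ratio (x axis) of every probe set above the floor for the 16 cholesterol genes (rows) with several such probe sets in liver; filled points mark the probe set of highest intensity, open points the others, and grey lines their range. For DSSPAR against CON, Hsd17b7 and Sc5d alone have probe sets on both sides of 0.

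In colon the comparison of DSS with CON addressed the inflamed tissue itself. Of the 7 mevalonate genes 5 lay above CON in DSS, with Mvk (-0.24) and Ggps1 (-0.54) below it, and of the regulators 2 of 4 and of the uptake and trafficking genes 2 of 5 did. Fdps was the 1 gene of 27 at least 2-fold higher, where 5.18% of 11952 genes were, and none was at least 2-fold lower, where 1.97% were. Either way 7.15% of all genes were past 2-fold. The median log2 ratio was 0.24, against 0.042 over all genes, and 19 of 27 genes lay above 0, against 54.1% of all genes. Of the 11 squalene and sterol genes 10 lay above CON (median 0.48), Dhcr7 being the exception at -0.25.

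Fdps read 325.8 in CON, 787.3 in DSS and 831.7 in DSSPAR in colon, 2.42-fold and 2.55-fold above CON. Its second probe set lay under the floor on all 3 colon arrays, so these values rest on 1 probe set. Msmo1 read 893.7, 1646 and 1895, and Idi1 671.6, 1066 and 1036. DSS and DSSPAR lay above CON for all 3 genes on these probe sets. The second probe set of Idi1 read 478.1, 570.2 and 846.6, with DSS nearer to CON than to DSSPAR. The dimmer probe set of Msmo1 read 52.3, 64.5 and 52.5, so the 2.12-fold value of its brightest one for DSSPAR was not seen there. Sqle read 488.9, 734.3 and 664.6, Sc5d 457.4, 690.1 and 700.2, and Lss 102.1, 164.9 and 149.1. These 3 lay 1.50-fold to 1.62-fold above CON in DSS, but the other probe sets of Sc5d and Lss above the floor gave log2 ratios of -0.13 to 0.016. Ebp read 665.1, 929.5 and 1068, Nsdhl 279.7, 399.0 and 457.4, Tm7sf2 121.1, 143.1 and 190.4, and Fdft1 1045, 1155 and 1580. In these 4 the order was CON, then DSS, then DSSPAR. Hmgcs1 read 2340, 2881 and 3339 in the same order, with 4 of its 5 probe sets above CON in both groups and the dimmest at -0.15 for DSS and -0.031 for DSSPAR.

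Ggps1 was the gene furthest below CON in colon. It read 160.0 in CON, 110.1 in DSS and 74.9 in DSSPAR, 2.14-fold lower in DSSPAR than in CON. Its 3 other probe sets lay within -0.18 to -0.0084 on the log2 scale for the same comparison, so the fold rests on 1 probe set. The regulators differed little in colon. Srebf2 read 167.5, 188.4 and 175.1, Scap 219.6, 251.8 and 246.2, and Insig2 297.8, 256.9 and 294.0, each within 1.16-fold over the 3 arrays. Insig1 read 567.3, 563.1 and 818.6, with CON and DSS alike and DSSPAR 1.45-fold above DSS. The remaining genes (Mvk, Pmvk, Mvd, Lbr, Hsd17b7, Dhcr7, Scarb1, Lipa, Npc1, Npc2 and Stard4) ranged by 1.03-fold to 1.45-fold over the 3 colon arrays on their brightest probe sets. The second probe set of Mvd read 92.5, 131.5 and 172.5, a log2 ratio of 0.90 for DSSPAR against CON. Lipa, at the upper end, had 1 probe set 1.18 on the log2 scale above CON in DSS and another at 0.11.

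Between the DSSPAR and DSS colons no gene of the 27 was past 2-fold, where 0.392% of 11730 genes lay past it upward, 1.24% downward and 1.64% either way. The median was 0.023, against -0.013 over all genes, and 15 of 27 genes lay above 0, against 48.3%. Insig1 (log2 ratio 0.54) and Ggps1 (-0.56) were the outermost. Against CON, 2 genes were at least 2-fold higher in DSSPAR (Fdps and Msmo1), where 3.51% of 11808 genes were, and Ggps1 was lower, where 2.1% were. Either way this was 3 of 27, beside 5.61% of all genes. The median was 0.38, against 0.027 over all genes, and 20 of 27 genes lay above 0, against 52.6%.

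The order of the 3 groups summarises both tissues. In colon CON was the lowest array for 18 of 27 genes (66.7%), against 41.4% of 12091 genes above the floor. The order CON, DSS, DSSPAR from low to high held for 11 of the 27 (40.7%), against 19.6% of all genes. In liver CON was lowest for 14 of 28 genes (50.0%), against 30.3% of 13315, and DSSPAR was highest for 17 (60.7%), against 29.3%. DSS was lowest there for 10 of the 28 (35.7%), near the 35.1% of all genes. The genes with DSS lowest and DSSPAR highest in liver were Pmvk, Fdps, Nsdhl, Ebp, Sc5d, Dhcr7, Scap and Npc1. These 8 were 28.6% of the genes measured in liver, where 15.9% of all genes had that order. In colon Insig1 and Npc2 had it, 7.41% of the 27, where 11.2% of all genes did.

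Other genes of the pathway, taken from a list, are given by count. Of 20 genes for further enzymes, protease activators, receptors and carriers 17 were measured in liver for DSS against CON (median -0.40). Of these, 2 were past 2-fold upward and 0 downward, where 4.73% and 4.2% of all genes were. The 2 were Cyp51, the demethylase that acts between Lss and the sterol reductases (3509 in CON, 7314 in DSS and 7937 in DSSPAR), and Lrp1, a receptor for lipoprotein remnants and protease complexes (1219, 3283 and 3427). Cyp51 thus had the same order of groups as Sqle. In colon none of 18 was past 2-fold in any of the 3 comparisons, and Cyp51 read 396.6, 540.7 and 682.8. Over all genes 7.15%, 1.64% and 5.61% were past it there (DSS against CON, DSSPAR against DSS, DSSPAR against CON). Of 15 genes of cholesterol efflux and bile acid synthesis in liver 2 were at least 2-fold lower in DSS, Cyp8b1 (5.94-fold) and Cyp7b1 (3.07-fold), and none higher. The shares of all genes were again 4.2% lower and 4.73% higher. Cyp7a1, which starts the classical route to bile acids, read 3972, 6648 and 9114 in CON, DSS and DSSPAR, the same order as Sqle.

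Fatty acid synthesis, which draws on the same acetyl-CoA and on the sister factor made from Srebf1, is set beside cholesterol synthesis in liver. Of 17 of its genes 11 were at least 2-fold lower in DSS than in CON and none higher (median -1.18), beside 1 of 28 cholesterol genes lower and 3 higher. Over all genes 4.2% were lower and 4.73% higher. Fasn, the fatty acid synthase, read 5283 in CON, 1313 in DSS and 4981 in DSSPAR, and Srebf1 read 6835, 3946 and 5561. Both were lowest in DSS, where Srebf2 was highest. For DSSPAR over DSS, 6 of the 17 fatty acid synthesis genes lay past 2-fold, each upward (median 0.90). Over all genes 2.8% lay past it upward and 4.23% downward. Against CON, the DSSPAR median was -0.26 for fatty acid synthesis and 0.47 for the cholesterol genes. No test of this difference is possible with 1 array per group.

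**Figure D4:**
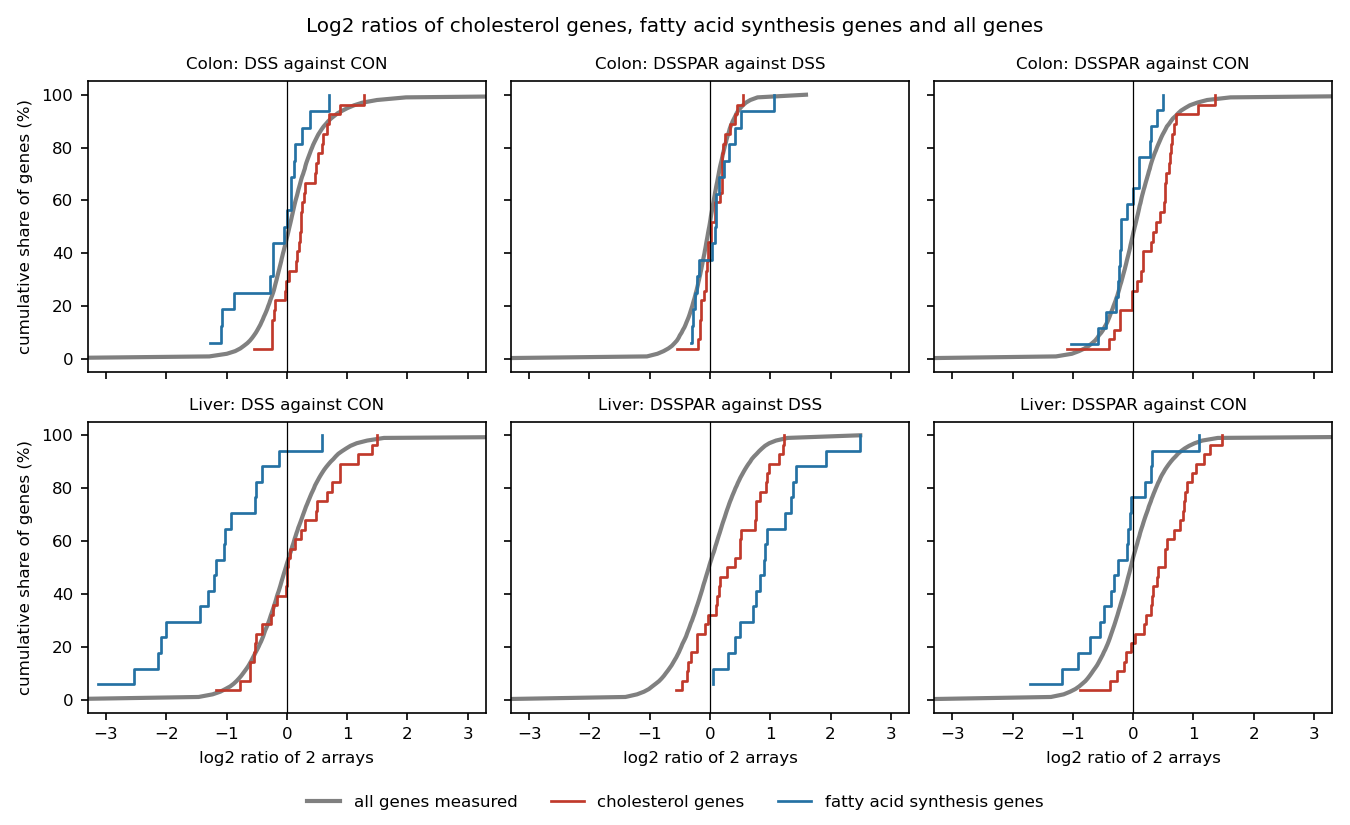
Cumulative share of genes (y axis, %) by log2 ratio (x axis) for cholesterol genes (red), fatty acid synthesis genes (blue) and all genes measured (grey), per tissue and comparison, from 1 array per group. In liver DSS against CON the fatty acid genes lie left of the rest (median -1.18). There the cholesterol genes have a median near that of all genes (0.015 against -0.018) and a wider spread, with quartiles of -0.44 and 0.54 against -0.38 and 0.35. For DSSPAR against CON the cholesterol genes lie to the right (median 0.47).

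Markers of other cells moved with these groups. For DSS against CON, 4.73% of all genes were at least 2-fold higher in liver and 4.2% lower. In colon 5.18% were higher and 1.97% lower. In liver 6 of 11 measured macrophage markers were at least 2-fold higher in DSS than in CON, with summed intensities of 18417 in CON, 34351 in DSS and 31785 in DSSPAR. Kupffer cell markers were higher in 4 of 6 cases, with sums of 15440, 35432 and 26807. Neutrophil markers were higher in 3 of 5 measured, with sums of 1349, 23584 and 8717, and Mpo and Cxcr2 under the floor on all arrays. Markers of dividing cells were higher in 3 of 6 measured, with sums of 3478, 4785 and 5770, and Aurkb and Bub1 under the floor. Hepatocyte markers, 10 on the array, summed to 519312, 663674 and 445234, with 1 at least 2-fold lower in DSS. In colon 10 of 12 macrophage markers were at least 2-fold higher in DSS, with sums of 2033, 7444 and 6761, 6 of 9 markers of dividing cells (2453, 5324 and 4372), and all 7 exocrine pancreas markers (64.5, 2391 and 66.4), the last in DSS alone. Of the 9 colon neutrophil markers 3 of 4 measured were higher (100.5, 3135 and 2489), with Mpo, Elane, Camp, Cxcr2 and Csf3r under the floor, and of the adipocyte markers 3 of 4 measured (525.3, 1421 and 855.5), with Lep and Cidec under the floor. Colon epithelial markers, 12 on the array, summed to 46733, 45302 and 49273, with Cdx2 (log2 ratio -1.16) and Car1 (-1.01) at least 2-fold lower in DSS and none higher. Against CON in DSSPAR, Cdx2 was at -1.67 and Aqp8 at 1.46. The part of these cells in the cholesterol results was not tested.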

How the data were processed

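Colon and liver RNA of 3 groups of mice was measured on 6 arrays, 1 pool of 7 mice per array as the series' design text states, with 15 µg of RNA labelled, per the labels' protocols. The authors deposited 1 intensity for each probe set on each array, made with MAS5, per the submitters' processing notes. Which version and scaling target were used was not given in the sources used here. The labels give 10 days of exposure for DSS and 9 for DSSPAR in the treatment text, while the growth text names 9 days alone. Of 45101 probe sets, 34958 carried 1 symbol in the platform annotation, 932 several and 9211 were not listed. Through Entrez identifiers 34754 were found in the RefSeq gene table (GRCm38.p6), and 0 symbols needed an update. A gene was represented by the probe set with the highest average log2 value in a tissue, entered a comparison if at least 1 of the 2 arrays lay above the floor (the median of the 3 arrays), and was counted at a 2-fold threshold. No test was run, since 1 array per group leaves no residual degrees of freedom.

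The members and the gene lists were chosen with earlier results of these data known. Intensities in every array are given for members at least 1.5-fold apart in any comparison of a tissue, for the 4 regulators, and for Hmgcs1, Sqle and Npc1l1. The promoter motifs were chosen after the data were seen. The alternatives are in the closing section. The calculations were tested on simulated data. Python 3.11.15, NumPy 2.4.6, pandas 2.3.3 and matplotlib 3.10.9 were used.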

Additional observations from a re-analysis of the deposited data

Results flagged for a closer look

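The liver and colon values went opposite ways for 4 member comparisons that were past 2-fold in liver or colon, with 1 array per group and tissue, so the differences between tissues were not tested. For DSS against CON, Fdps had a log2 ratio of 1.27 in colon and -0.41 in liver, and Scap 0.20 in colon and -1.18 in liver. For DSSPAR against DSS, Dhcr7 had -0.071 in colon and 1.14 in liver, and Scap -0.033 in colon and 1.22 in liver. These 2 colon values lay near 0 and their direction is not settled, with Dhcr7 up to 0.13 and Scap up to 0.16 under other settings. With the mean over probe sets, Fdps for DSS against CON in liver reached 1.10, and the Scap liver value for DSSPAR against DSS was -0.057. Of 27 genes measured in both tissues, 14 (51.9%) lay on the same side of 0 in colon and liver when DSS was set against CON, beside 53.7% of 10766 genes. The number was 13 (48.1%) when DSSPAR was set against DSS, beside 48.9% of 10463 genes, and 21 (77.8%) when it was set against CON, beside 51.0% of 10611.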

How the results depend on the processing

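Of 15 member values past 2-fold, 13 kept their sign under all of the 7 alternatives that could be computed for them, and 7 stayed past 2-fold in their own direction under all of these. The 2 that changed sign did so with the mean over probe sets, which brings in probe sets under the floor: Fdps (-1.92) and Scap (-0.057) for DSSPAR against DSS in liver. With that setting the liver median for DSS against CON was -0.000537, and in colon no member was past 2-fold for DSS or DSSPAR against CON (0 in each, Fdps no longer being above the floor), with a median of 0.27 for DSSPAR against CON. Arrays centred on their medians, which undoes shifts between array medians of -0.084 to -0.28 in colon and -0.15 to -0.31 in liver, gave medians of 0.32, 0.22 and 0.66 in colon and 0.16, 0.51 and 0.78 in liver (DSS against CON, DSSPAR against DSS, DSSPAR against CON), and counts past 2-fold of 6 and 10 in liver for DSSPAR against DSS and against CON (7.97% and 9.42% of all genes). Centring on probe sets above the floor gave a median of 0.11 for DSSPAR against DSS in colon, against 0.073 over all genes. Without probe sets whose suffix marks several transcripts the median for DSSPAR against CON was 0.20 in colon and 0.59 in liver. With no floor 2 members were past 2-fold for DSS against CON in colon (19.6% of all genes). At 1.5-fold the counts were 6 and 9 of 27 in colon (DSS and DSSPAR against CON), where 20.5% and 19.7% of all genes were past it, and 11, 10 and 12 of 28 in liver, where 29.1%, 27.8% and 24.6% were. The causes were not tested. CON stayed lowest for 14 to 21 members in colon and 12 to 17 in liver, over alternatives of which those on floor and scaling were chosen after seeing the data. The share over all genes was computed in the main setting alone (41.4% in colon and 30.3% in liver). Centring arrays on their medians gave the highest of these counts, and it raises every ratio against CON, for members and other genes alike. A median counts as moved here when it differs by more than the probe set spread over the root of the number of members. No paired analysis was possible because each group has 1 array. Signal over background limits Srebf2 and Npc1l1 in liver, whose CON values lie near the floor.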
